A study of Mus musculus with 31 samples.

Results

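Pegylated interferon alpha (IFN) was compared with vehicle in long-term haematopoietic stem cells (HSCs) that carry JAK2-V617F and lack Dnmt3a. The comparison rested on 8 of the 31 RNA-seq libraries of the series, taken by their labels: the 4 labelled VFDM IFN and the 4 labelled VFDM vehicle. The donors of both arms carried the genotype SclCre;FF1;Dnmt3Δ/Δ;GFP, in which Scl regulatory sequence drives the Cre recombinase, FF1 is the JAK2-V617F transgene made with human JAK2 sequence, Dnmt3a is deleted and GFP is a reporter. Marrow of these donors was transplanted into wild-type hosts together with a 10-fold excess of wild-type marrow. From 4 weeks after transplantation the hosts received 25 µg/kg IFN once weekly under the skin, or vehicle, and after 8 weeks of treatment lineage-negative, Kit-positive, Sca1-positive, CD150-positive, CD48-negative marrow cells were sorted into lysis buffer. The same 2 arms in SclCre;FF1;GFP cells, which keep Dnmt3a and are labelled VF, are set beside them where the genotypes are compared (4 IFN and 4 vehicle libraries). The gate names no GFP, so the sorted cells may include cells of the wild-type donor or host, and their share is not given. Ages are not given. Whether each library is 1 mouse is not stated either, so a p-value here measures the spread between libraries. Except where stated, that spread was estimated over all 31 libraries of the series.

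Type I interferon binds the IFNAR1 and IFNAR2 receptor chains, whose kinases JAK1 and TYK2 phosphorylate STAT proteins. STAT2 and IRF9 take part in a complex that binds interferon-stimulated response elements in the promoters of antiviral genes, and newly made IRF7 amplifies the response. In mice, interferon alpha is known to bring dormant HSCs into division, and it is used to treat JAK2-V617F myeloproliferative neoplasms. DNMT3A is a de novo DNA methyltransferase whose loss favours self-renewal of HSCs.

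The targeted gene was read first. Dnmt3a had 104, 111, 162 and 102 CPM (counts scaled to library size) in VFDM IFN libraries 1 to 4, against 119, 120, 119 and 109 CPM in VFDM vehicle libraries 1 to 4. VF IFN libraries lay between 160 and 178 CPM and VF vehicle libraries between 162 and 297 CPM, so the library labelled VFDM IFN 3 lay at the VF level. That library also had 113 CPM of the CreERT2 transgene, against 212 to 244 CPM in the other VFDM IFN libraries, 198 to 244 CPM in VFDM vehicle and 79.2 to 104 CPM in VF IFN. Its Ifi204, an interferon-inducible gene of the Ifi200 family, was at 12.5 CPM, against 68.9 to 79.6 CPM in its 3 partners and 6.39 to 13.8 CPM in VF IFN. VFDM vehicle libraries had 32.0 to 42.2 CPM of Ifi204. The level of a whole gene does not show which exons were deleted. Because this library goes against its label, it is called the library labelled VFDM IFN 3. Counts of changed genes and some values of single genes are given with and without it. Overlaps with VF and the genotype differences of single genes were computed with it only.

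**Figure D1:**
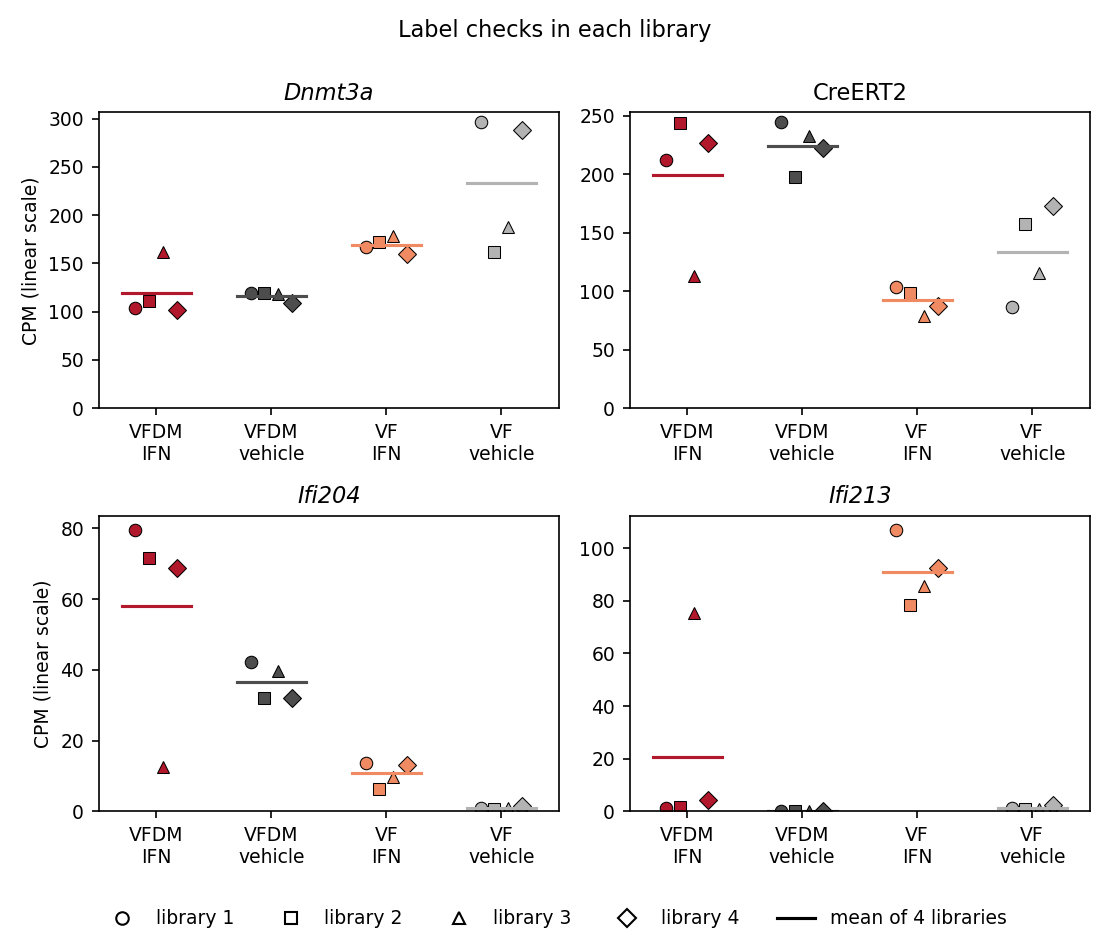
Levels (CPM, linear scale) of Dnmt3a, CreERT2, Ifi204 and Ifi213 in each library of VFDM IFN, VFDM vehicle, VF IFN and VF vehicle; points are libraries and lines are means of 4. The library labelled VFDM IFN 3, with 162 CPM of Dnmt3a and 113 CPM of CreERT2, lies apart from the other 3 of its group.

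The 8 libraries held 22557079 to 47242663 counts each, with 20521 to 26202 genes detected. VFDM IFN library 4 had both the fewest counts and the fewest genes detected. Among 12881 genes of at least moderate level, VFDM IFN library 4 had 114 genes at least 2-fold above and 354 at least 2-fold below all 3 partners, the most of the 8 libraries; the counts for the library labelled VFDM IFN 3 were 13 and 56. The sort genes were read as well. Kit, the stem cell factor receptor, had 595 to 691 CPM in VFDM IFN and 684 to 805 CPM in VFDM vehicle. Slamf1, which encodes CD150, had 70.8, 103, 39.5 and 93.5 CPM in VFDM IFN, against 59.3 to 93.3 CPM in VFDM vehicle. Cd48 had 8.62, 14.3, 4.77 and 11.5 CPM in VFDM IFN, against 4.53 to 7.60 CPM in VFDM vehicle. The lowest IFN value of both genes was that of the library labelled VFDM IFN 3. Its VFDM IFN partners all lay above the vehicle libraries for Cd48, which did not pass by edgeR with or without it.

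IFN changed 214 of 22172 genes tested in Dnmt3a-deleted stem cells (0.965%; edgeR's quasi-likelihood test, Benjamini-Hochberg adjusted p below 0.05). Of these, 203 were higher (0.916%) and 11 were lower (0.0496%) in VFDM IFN, and 180 of the higher ones are protein-coding. The median log2 fold change of all genes tested was -0.01. Without the library labelled VFDM IFN 3, 172 genes passed (0.778%), 165 higher (0.746%) and 7 lower (0.0316%), and 170 of them were among the 214. The IFN libraries lay wholly above the vehicle libraries for 200 of the 203 and wholly below for all 11, against 1301 (5.87%) and 1546 (6.97%) of all genes tested. The calls were made on the same values, so this separation describes the called genes and adds no support to the calls. The count moved with the libraries in the fit: on the 8 libraries alone, with 19315 genes tested, 1092 genes passed, 618 higher (3.2%) and 474 lower (2.45%), and leaving out VFDM vehicle library 2 or 3 gave 120 and 142 genes.

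Genes of 13 interferon lists (signal transducers, feedback, antiviral effectors, sensors, the Ifi200, GTPase, Schlafen, PARP and PHF11 families, and class I antigen presentation) accounted for 81 of the 203 rises (39.9%). Of 177 list genes tested, 81 rose, 0 fell and 96 did not pass, with a median log2 fold change of 0.87. The other 122 rises were in no interferon list and included genes of the megakaryocyte, erythroid and neutrophil lineages. The lists are a selection, so a rise outside them may still belong to the interferon response. Promoter sequences were at hand for 91 of these rises. The core of the interferon-stimulated response element occurred in 11 (12.1%), Apol9a and Apol9b among them, against 3.85% of all genes tested. In bulk RNA, fewer cells of a type and less RNA per cell cannot be told apart.

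**Figure D2:**
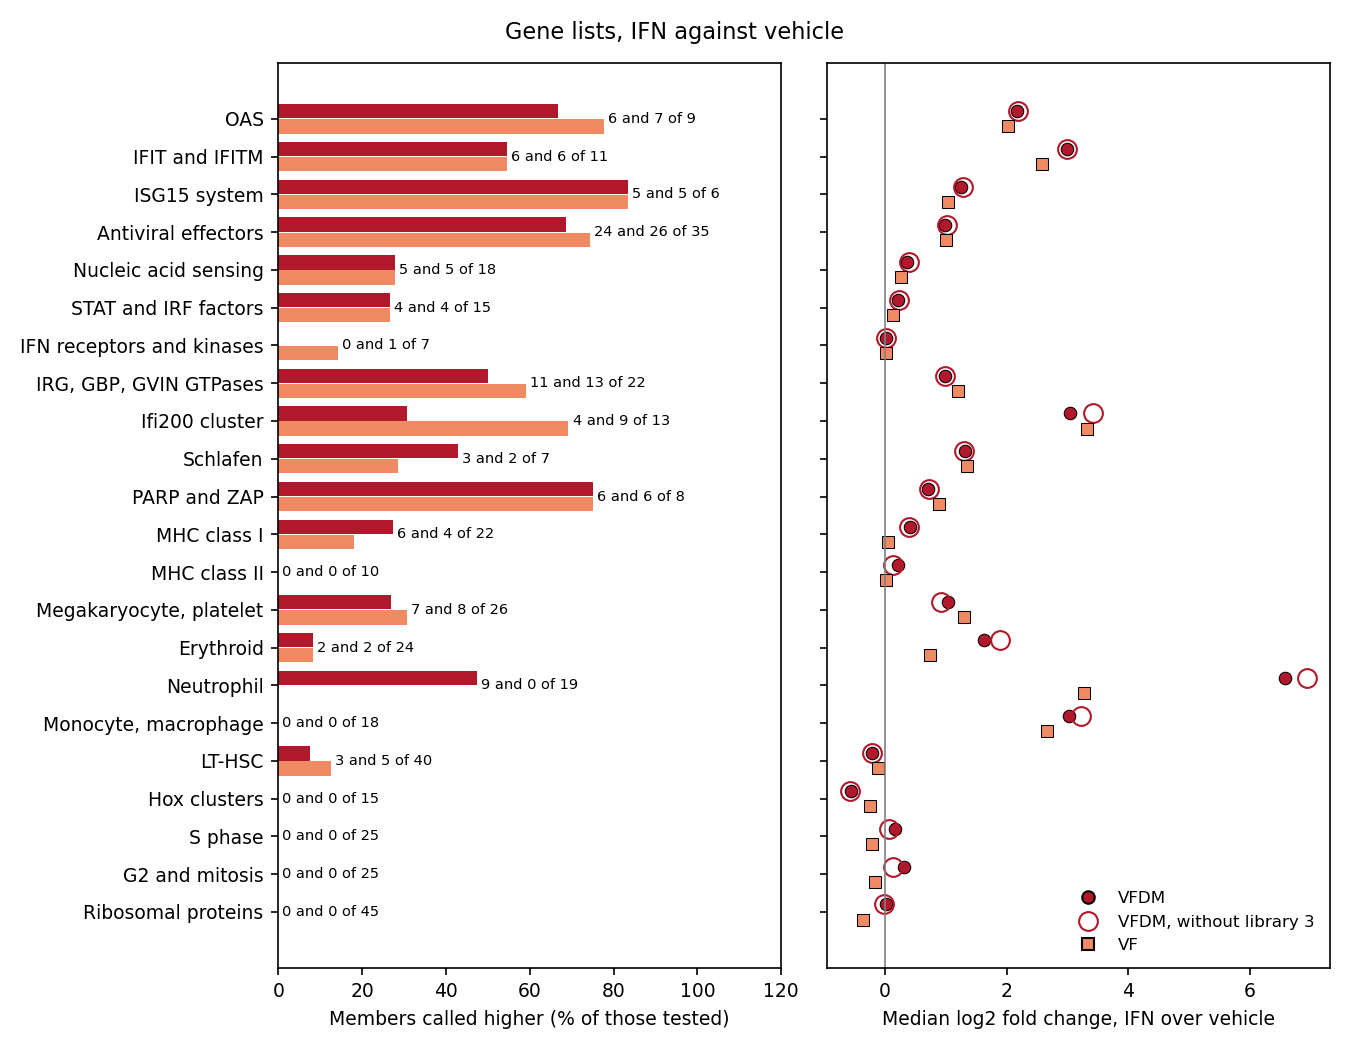
Share of tested members called higher in IFN against vehicle (left, %) and median log2 fold change of all tested members (right) for 22 gene lists, in VFDM and in VF cells; open circles leave out the library labelled VFDM IFN 3. The numbers beside the bars are members called higher in VFDM and in VF of those tested, such as 24 and 26 of 35 antiviral effectors.

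The receptors and their kinases were not among the changes. Of 7 tested (Ifnar1, Ifnar2, Ifngr1, Ifngr2, Jak1, Jak2 and Tyk2), 0 passed by edgeR, 1 was higher and 1 lower at an unadjusted p below 0.05, DESeq2 called 0 and limma voom called 1 in each direction. Over all genes tested, 6.13% had an unadjusted p below 0.05 (4.06% higher, 2.07% lower), DESeq2 called 1.17% higher and 0.161% lower, and limma voom called 4.4% higher and 4.4% lower. Jak1 had 288, 281, 292 and 313 CPM in VFDM IFN, against 358, 335, 370 and 359 CPM in VFDM vehicle. Its groups did not overlap, and its log2 fold change was -0.28 ± 0.10 (SE; edgeR adjusted p = 0.343).

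Of 15 STAT and IRF genes tested, which carry the signal to promoters, 4 rose, Irf7, Stat2 and Irf9 among them, 0 fell and 11 did not pass, with a median of 0.21. Irf7 (chromosome 7, 141262706 to 141266481, mm10), the interferon-induced factor that amplifies the response, had 198, 177, 173 and 168 CPM in VFDM IFN, against 16.8, 9.85, 12.1 and 11.0 CPM in VFDM vehicle. The groups were far apart, and the log2 fold change was 3.85 ± 0.32 (edgeR adjusted p = 2.81e-09). Stat2, a signal transducer of the type I receptor, had 145, 129, 93.6 and 138 CPM in VFDM IFN, against 51.0, 44.6, 47.4 and 50.3 CPM in VFDM vehicle. The lowest IFN value was that of the library labelled VFDM IFN 3, and the log2 fold change was 1.39 ± 0.17 with it and 1.51 without it. Irf9, the DNA-binding subunit of the complex, rose by 0.89 ± 0.17. Irf1, Irf3, Irf5 and Irf8 were among the 11 that did not pass.

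Of 9 feedback genes tested, Usp18 and Isg15 rose and 7 did not pass (median 0.17). Usp18, the protease that removes ISG15 and blocks the receptor, had 82.8, 88.8, 90.0 and 72.4 CPM in VFDM IFN, against 11.9, 6.69, 8.46 and 7.87 CPM in VFDM vehicle. The groups were far apart, with a log2 fold change of 3.26 ± 0.26 (edgeR adjusted p = 3.08e-10). Isg15, a ubiquitin-like modifier, had 31.6, 21.8, 24.8 and 28.3 CPM in VFDM IFN, against 3.22, 2.57, 2.81 and 2.04 CPM in VFDM vehicle. All 4 IFN libraries were above all 4 vehicle libraries, with a log2 fold change of 3.32 ± 0.39 (edgeR adjusted p = 7.92e-07). Of 6 genes of the ISG15 system tested, 5 rose, Trim25 and Herc6 among them by 0.86 ± 0.14 and 1.17 ± 0.20. Ube2l6, the ISG15-conjugating enzyme, rose by 1.34 ± 0.32 (edgeR adjusted p = 0.0324), and lost its call without any one of VFDM vehicle libraries 1 to 4 or VFDM IFN libraries 2 to 4, with an adjusted p of at most 0.186.

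Antiviral effectors rose in number. Of 9 genes of the OAS list, 6 rose, with a list median of 2.17. Oas2, a sensor of double-stranded RNA that makes oligoadenylate, had 280, 246, 203 and 260 CPM in VFDM IFN, against 26.7, 25.9, 22.2 and 27.2 CPM in VFDM vehicle. The groups were separated widely, and the log2 fold change was 3.28 ± 0.23 (edgeR adjusted p = 2.76e-11). Oasl1, Oas3, Oasl2 and Oas1a rose by 2.89 ± 0.30, 2.18 ± 0.21, 2.17 ± 0.18 and 1.88 ± 0.21. Of 35 further effectors, 24 rose and 0 fell (median 0.98), and all 35 had positive fold changes. Ifi44 had 219, 159, 168 and 163 CPM in VFDM IFN, against 31.5, 34.5, 34.4 and 27.3 CPM in VFDM vehicle, a log2 fold change of 2.47 ± 0.19 (edgeR adjusted p = 1.59e-10). Mx1, a dynamin-like GTPase that blocks influenza virus, had 55.2, 44.0, 42.3 and 43.0 CPM in VFDM IFN, against 3.05, 2.54, 3.98 and 3.77 CPM in VFDM vehicle. Neither pair of groups overlapped, and the log2 fold change of Mx1 was 3.79 ± 0.51. Adar, the editor of adenosine in double-stranded RNA, had 300, 294, 293 and 297 CPM in VFDM IFN, against 144, 139, 137 and 129 CPM in VFDM vehicle, with little spread in either group (log2 fold change 1.11 ± 0.11). Rtp4, Xaf1 and Ddx60 rose by 2.34 ± 0.22, 1.95 ± 0.20 and 1.63 ± 0.16.

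**Figure D3:**
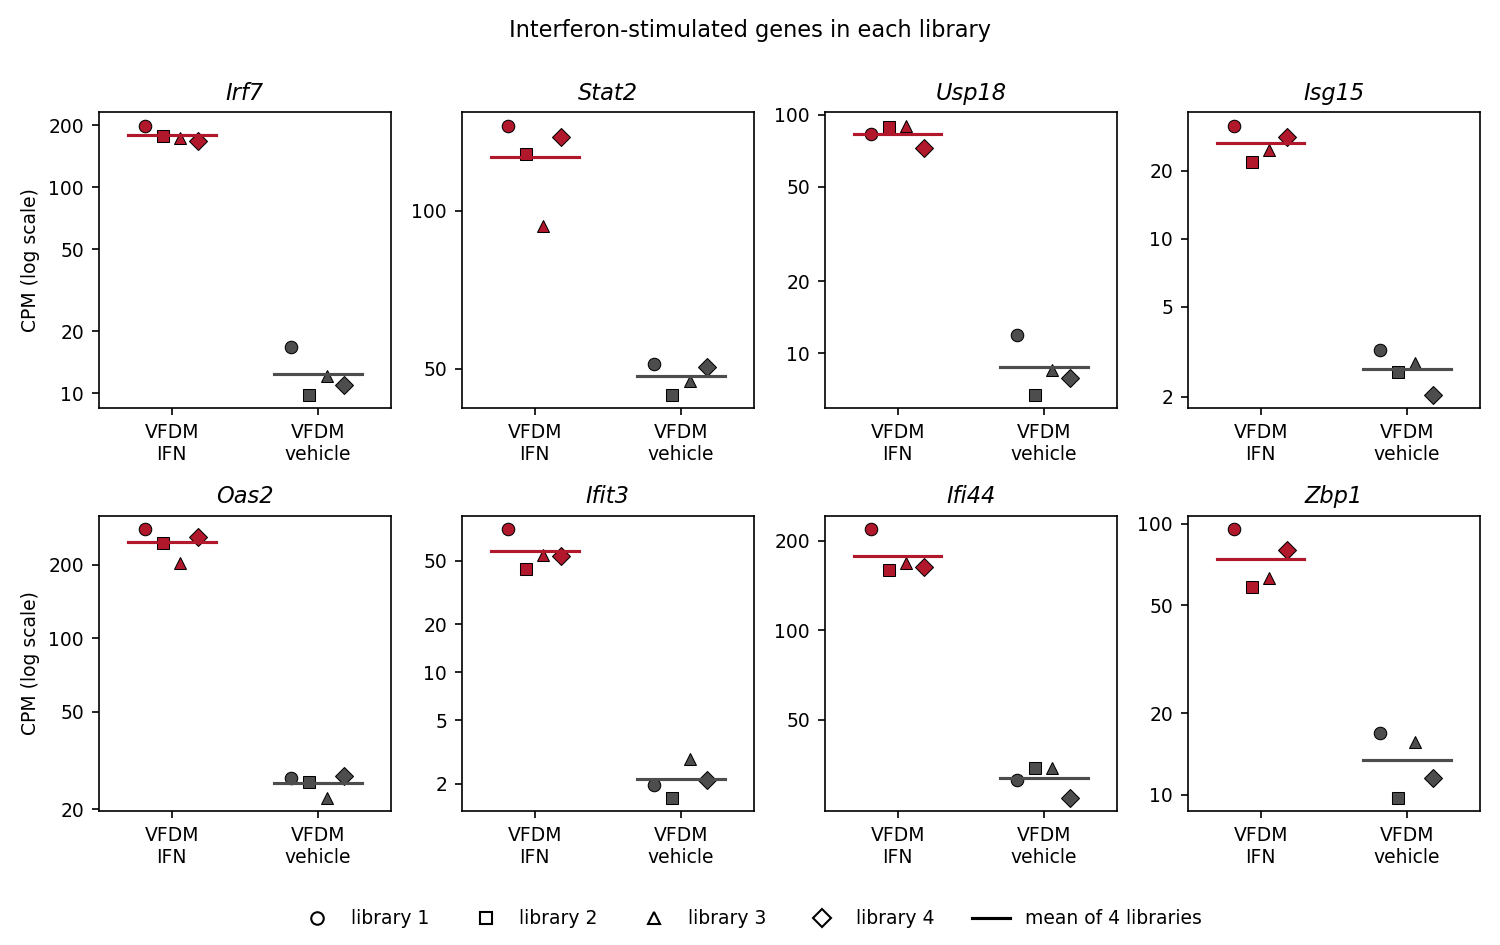
Levels (CPM, log scale) of 8 interferon-stimulated genes in the 4 VFDM IFN and the 4 VFDM vehicle libraries; points are libraries, with a marker shape per library number, and lines are means. In each panel the IFN libraries lie above the vehicle libraries, as for Oas2 with 203 to 280 CPM in VFDM IFN and 22.2 to 27.2 CPM in VFDM vehicle.

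The IFIT proteins, which bind viral RNA, gave some of the largest changes. Ifit3 had 79.2, 44.6, 54.2 and 53.6 CPM in VFDM IFN, against 1.97, 1.63, 2.86 and 2.13 CPM in VFDM vehicle. Its IFN libraries were all above its vehicle libraries, and the log2 fold change was 4.75 ± 0.78 (edgeR adjusted p = 6.02e-04). Ifit1 had 132, 83.6, 102 and 100 CPM in VFDM IFN, against 12.5, 11.7, 16.4 and 12 CPM in VFDM vehicle (log2 fold change 2.99 ± 0.37), and Ifit2 rose by 1.31 ± 0.21. Of 11 IFIT and IFITM genes tested, 6 rose (median 2.99), or 3 without VFDM vehicle library 2. Ifit3b rose by 4.49 ± 1.07 and is nearly identical to Ifit3, so that reads may be split between them; its call was lost without any 1 vehicle library or without VFDM IFN library 1 (adjusted p at most 0.128). Ifitm3, a membrane protein that restricts virus entry, rose by 1.22 ± 0.28 (edgeR adjusted p = 0.0203). It did not pass without VFDM vehicle library 2 or 4, without the library labelled VFDM IFN 3 (adjusted p = 0.0612) or without VFDM IFN library 4, with an adjusted p of at most 0.0838.

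Cytosolic sensors rose in part. Of 18 nucleic acid sensing genes tested, 5 rose, 0 fell and 13 did not pass (median 0.36). Zbp1, the sensor of Z-form nucleic acid, had 95.6, 58.6, 63.0 and 80.0 CPM in VFDM IFN, against 16.9, 9.73, 15.7 and 11.6 CPM in VFDM vehicle. The RIG-I family member Ddx58 had 239, 200, 196 and 174 CPM in VFDM IFN, against 105, 92.8, 91.4 and 88.6 CPM in VFDM vehicle. Both genes were higher in every IFN library, with log2 fold changes of 2.46 ± 0.21 for Zbp1 and 1.10 ± 0.14 for Ddx58. The related helicases Dhx58 and Ifih1 rose by 1.64 ± 0.19 and 1.11 ± 0.15, and Nlrc5, the activator of class I genes, by 0.64 ± 0.13.

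Promoter sequences of 5 of these genes are shown because the core of the interferon-stimulated response element occurs in them: GAAA, any 2 bases and a second GAAA. Each is the RefSeq window of 300 bases, 250 before to 50 after the gene start, in GRCm38.p6, written on the strand of the gene. Capitals mark this motif, which reads TTTC, 2 bases and TTTC where it lies on the opposite strand, and overlapping matches run together. Ifit3 lies at chr19:34583279-34583578 (plus strand), Isg15 at chr4:156200769-156201068 (minus), Stat2 at chr10:128270248-128270547 (plus), Ddx58 at chr4:40239776-40240075 (minus) and Itga2b, the platelet integrin, at chr11:102469834-102470133 (minus).
Ifit3: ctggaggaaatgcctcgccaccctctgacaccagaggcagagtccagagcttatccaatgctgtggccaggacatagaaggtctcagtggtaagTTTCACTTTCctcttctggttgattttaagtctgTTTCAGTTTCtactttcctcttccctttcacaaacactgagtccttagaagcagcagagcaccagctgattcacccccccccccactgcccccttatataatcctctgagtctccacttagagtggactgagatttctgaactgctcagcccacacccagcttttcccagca
Isg15: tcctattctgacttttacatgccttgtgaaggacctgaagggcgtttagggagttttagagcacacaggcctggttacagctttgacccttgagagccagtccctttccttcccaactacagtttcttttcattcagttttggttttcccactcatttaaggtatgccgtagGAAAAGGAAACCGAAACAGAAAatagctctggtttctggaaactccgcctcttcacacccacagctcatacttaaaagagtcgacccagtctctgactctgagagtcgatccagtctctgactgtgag
Stat2: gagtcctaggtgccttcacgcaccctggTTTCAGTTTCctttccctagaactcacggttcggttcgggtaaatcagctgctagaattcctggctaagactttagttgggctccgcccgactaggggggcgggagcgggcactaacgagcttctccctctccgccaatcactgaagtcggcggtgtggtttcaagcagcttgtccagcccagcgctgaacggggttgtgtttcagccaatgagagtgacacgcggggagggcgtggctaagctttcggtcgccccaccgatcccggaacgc
Ddx58: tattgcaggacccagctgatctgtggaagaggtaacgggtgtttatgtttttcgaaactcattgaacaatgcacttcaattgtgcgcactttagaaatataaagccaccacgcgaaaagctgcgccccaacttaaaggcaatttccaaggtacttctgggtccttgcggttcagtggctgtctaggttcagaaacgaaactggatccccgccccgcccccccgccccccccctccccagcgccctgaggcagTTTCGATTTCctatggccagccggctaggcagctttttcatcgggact
Itga2b: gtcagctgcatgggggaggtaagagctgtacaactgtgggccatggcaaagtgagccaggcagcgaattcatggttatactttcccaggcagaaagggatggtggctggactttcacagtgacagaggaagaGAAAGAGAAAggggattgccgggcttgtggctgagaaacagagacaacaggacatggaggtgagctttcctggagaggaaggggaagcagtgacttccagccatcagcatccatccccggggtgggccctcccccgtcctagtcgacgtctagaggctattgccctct
Ifit3 holds 2 matches, whose first letters lie 156 and 122 bases before the start, and Isg15 holds 3 overlapping ones, at 78, 72 and 66 bases before it. Stat2 and Itga2b hold 1 each, 222 and 118 bases before the start, and Ddx58 holds 1 just after it. Of the 203 genes that rose, 155 had a promoter in the table, and 48 of these (31%) held the letters on either strand, against 455 of 11808 promoters of all genes tested (3.85%). The share was 57.8% for risen genes of the interferon lists (37 of 64) and 12.1% for the others (11 of 91). Among interferon-list genes that did not pass, 26 of 79 (32.9%) held it, and among the genes that fell, 0 of 7. Itga2b was the 1 match in 17 promoters of the megakaryocyte and platelet list (5.88%). The gamma-activated sequence TTCNNNGAA occurred in 24 of the 155 (15.5%) and in 8.55% of the promoters of all genes tested. A match describes the letters and was not tested as a binding site.

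The Ifi200 family, a chromosome 1 cluster of DNA-sensor genes, split by library. Of 13 tested, 4 rose in VFDM IFN and 9 did not pass, with a median of 3.04. Mndal had 463, 424, 282 and 393 CPM in VFDM IFN, against 238, 197, 207 and 211 CPM in VFDM vehicle (log2 fold change 0.87 ± 0.19, edgeR adjusted p = 0.0107), and Ifi203 rose by 0.96 ± 0.20. The call for Mndal was lost without VFDM vehicle library 2 or 3 or VFDM IFN library 1 (adjusted p at most 0.0698). Ifi206 had 3.65, 4.05, 35.9 and 1.91 CPM in VFDM IFN, against 0.0756, 0.296, 0.0659 and 0.0842 CPM in VFDM vehicle. The library labelled VFDM IFN 3 was far above its 3 partners, and VF IFN libraries had 38.6 to 49.1 CPM. The log2 fold change of Ifi206 was 6.47 ± 1.14 with that library and 4.64 without it. Ifi213 had 1.38, 1.77, 75.3 and 4.42 CPM in VFDM IFN and 0 counts in each VFDM vehicle library, and VF IFN libraries had 78.4 to 107 CPM. Against a floor of 3 counts over the 4 vehicle libraries (0.018 CPM) its mean was at least 1150-fold higher in VFDM IFN, or at least 140-fold without the library labelled VFDM IFN 3 (edgeR adjusted p = 0.00912 with it and 0.034 without it). These near-identical genes may share reads.

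Interferon-induced GTPases, Schlafen genes and PARPs followed. Of 22 IRG, GBP and GVIN genes tested, 11 rose and 0 fell (median 0.99). Irgm1, a regulator of the GTPase family, had 148, 131, 130 and 132 CPM in VFDM IFN, against 63.3, 52.0, 55.8 and 50.7 CPM in VFDM vehicle. That separation gave a log2 fold change of 1.29 ± 0.15 (edgeR adjusted p = 1.29e-06), and Iigp1 and Gvin1 rose by 1.32 ± 0.22 and 1.21 ± 0.17. Slfn5, Slfn8 and Slfn4 rose by 1.98 ± 0.24, 1.31 ± 0.17 and 5.07 ± 1.02, the other 4 Schlafen genes tested did not pass, and Slfn4 was below 0.5 CPM in each vehicle library. Of 8 PARP and ZAP genes tested, 6 rose, among them Parp14 and Parp9 (both by 1.09) and Zc3hav1 (0.70 ± 0.14), which binds CpG-rich viral RNA. Phf11d had 142, 111, 157 and 115 CPM in VFDM IFN, against 15.9, 18.3, 15.3 and 12.8 CPM in VFDM vehicle. Its groups were several-fold apart (log2 fold change 3.08 ± 0.29, edgeR adjusted p = 7.52e-09). Rnf213, a large ubiquitin ligase chosen after its values were seen, had 2573, 2446, 2278 and 2321 CPM in VFDM IFN, against 836, 789, 774 and 734 CPM in VFDM vehicle (log2 fold change 1.62 ± 0.13). Apol9a and Apol9b, near-identical apolipoprotein L genes, rose by 4.35 ± 0.95 and 3.86 ± 0.44, and Apol9a did not pass without VFDM vehicle library 2, 3 or 4 (adjusted p at most 0.0994).

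Class I antigen presentation rose in part. Of 22 genes tested, 6 rose, 0 fell and 16 did not pass, among them H2-K1, H2-D1 and B2m, and the median was 0.41. Tap1, a subunit of the peptide transporter, had 236, 256, 250 and 249 CPM in VFDM IFN, against 127, 125, 128 and 124 CPM in VFDM vehicle. Both groups were tight and far from each other, with a log2 fold change of 0.97 ± 0.12 (edgeR adjusted p = 3.74e-06). H2-T24, H2-Q7 and H2-T22 rose by 2.06 ± 0.27, 0.86 ± 0.13 and 0.82 ± 0.13. H2-T23 rose by 0.69 ± 0.15 and lost its call without VFDM vehicle library 2 (adjusted p = 0.0684). Class I genes are similar in sequence, and the multi-mapping rule of the counts is not given in the sources used here. With the 8 libraries alone 14 of 22 passed, against 3.2% of all genes higher and 2.45% lower in that fit. Of 10 class II genes, 0 passed by edgeR or DESeq2, 1 was higher at an unadjusted p below 0.05 and limma voom called 1.

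Ly6a, which encodes the sort marker Sca1 and is interferon-inducible, had 63.0, 48.1, 47.7 and 53.2 CPM in VFDM IFN, against 15.3, 12.1, 13.3 and 12.8 CPM in VFDM vehicle. All IFN libraries were at least 3-fold above all vehicle libraries (log2 fold change 1.98 ± 0.27, edgeR adjusted p = 9.29e-06), so that the gate was set on a protein whose RNA changed with treatment. Its relative Ly6e rose by 1.12 ± 0.15. Bcl2, the survival factor, had 112, 147, 134 and 132 CPM in VFDM IFN, against 96.1, 77.5, 97.9 and 78.3 CPM in VFDM vehicle, and was the 1 riser of 15 BCL2-family genes (log2 fold change 0.58 ± 0.14, edgeR adjusted p = 0.0249). Its call was lost without VFDM vehicle library 2 or 4 or VFDM IFN library 2, 3 or 4, with an adjusted p of at most 0.163. Daxx, a regulator of apoptosis and chromatin, was the 1 riser of 16 cell death genes (0.90 ± 0.22, edgeR adjusted p = 0.0298) and lost its call without any 1 vehicle library or without VFDM IFN library 1, 2 or 4 (at most 0.133).

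Of 26 megakaryocyte and platelet genes tested, 7 rose, 0 fell, 19 did not pass and 23 were positive, with a median of 1.03. Of the risers, Itga2b, Plek, F2rl2 and Rab27b each lost their calls when certain single libraries were left out. Pf4 (chromosome 5, 90772435 to 90773383, mm10), the platelet chemokine, had 127, 262, 273 and 152 CPM in VFDM IFN, against 39.5, 12.1, 14.3 and 15.7 CPM in VFDM vehicle. The lowest IFN library was at least 3-fold above the highest vehicle library, and the log2 fold change was 3.32 ± 0.56 (edgeR adjusted p = 0.00124). Slc14a1, a urea transporter, had 81.3, 145, 156 and 101 CPM in VFDM IFN, against 45.6, 22.6, 34.8 and 34.8 CPM in VFDM vehicle, without overlap (log2 fold change 1.81 ± 0.27, edgeR adjusted p = 5.36e-05). Itga2b, the platelet integrin chain CD41, had 167, 409, 422 and 321 CPM in VFDM IFN, against 131, 65.8, 85.4 and 78.4 CPM in VFDM vehicle. VFDM IFN library 1 lay near VFDM vehicle library 1, and the log2 fold change was 1.87 ± 0.41 (edgeR adjusted p = 0.0178, and 0.0638 without the library labelled VFDM IFN 3). Plek, the major protein kinase C substrate of platelets, rose by 1.77 ± 0.38 (edgeR adjusted p = 0.0158). Both calls were lost without VFDM vehicle library 2, 3 or 4, VFDM IFN library 2 or the library labelled VFDM IFN 3, with an adjusted p of at most 0.109 for Itga2b and 0.0882 for Plek. F2rl2, a thrombin receptor, and Rab27b, a regulator of granule release, rose by 2.48 ± 0.55 and 1.07 ± 0.24; F2rl2 did not pass without VFDM vehicle library 3 or 4 (at most 0.0744), nor Rab27b without VFDM vehicle library 2 or VFDM IFN library 2 (at most 0.0916). The list count was 4 without VFDM vehicle library 2, 3 or 4 or VFDM IFN library 2, 5 without the library labelled VFDM IFN 3, and 14 on the 8 libraries alone. In that last fit 3.2% of all genes were called higher.

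Summed over the whole megakaryocyte and platelet list of 26 genes, the level was 2482, 3736, 3689 and 3016 CPM in VFDM IFN, against 2116, 1594, 1924 and 1723 CPM in VFDM vehicle. VFDM IFN library 1 was thus the closest to the vehicle libraries. Ppbp, Itgb3 and Gp6 were among the genes that did not pass. The part of megakaryocyte-lineage cells within the sort in these values was not tested.

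Erythroid genes gave 2 calls of 24. Gata1, the erythroid and megakaryocyte transcription factor, had 19.4, 50.2, 34.3 and 32.6 CPM in VFDM IFN, against 8.34, 7.63, 6.99 and 9.75 CPM in VFDM vehicle. The groups did not overlap, and the log2 fold change was 2.06 ± 0.34 (edgeR adjusted p = 2.51e-04). Sptb, the erythroid spectrin chain, had 13.4, 26.9, 19.5 and 24.6 CPM in VFDM IFN, against 2.9, 1.6, 1.27 and 3.6 CPM in VFDM vehicle, also without overlap (log2 fold change 3.17 ± 0.56, edgeR adjusted p = 0.00107). The list median was 1.62 and 20 of 24 were positive, while the globin genes Hba-a1, Hba-a2, Hbb-bs and Hbb-bt did not pass. The summed list level was 851 to 975 CPM in VFDM IFN and 817 to 857 CPM in VFDM vehicle. On the 8 libraries alone 11 of the 24 rose, against 3.2% of all genes.

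Several further genes rose outside these lists or within short ones. Plac8 (chromosome 5, 100553725 to 100572245, mm10), a small cysteine-rich protein of myeloid and lymphoid progenitors, had 88.0, 148, 172 and 127 CPM in VFDM IFN, against 30.8, 24.5, 21.6 and 12.2 CPM in VFDM vehicle. The groups were well apart (log2 fold change 2.59 ± 0.30, edgeR adjusted p = 1.87e-06). Serpine2, a protease inhibitor, had 11.5, 20.1, 24.5 and 19.0 CPM in VFDM IFN, against 0.857, 1.15, 2.35 and 1.68 CPM in VFDM vehicle, a log2 fold change of 3.63 ± 0.46. Of 14 genes of transforming growth factor beta signalling, which restrains HSC division, 2 rose. Tgfb1, the ligand, had 226, 325, 312 and 316 CPM in VFDM IFN, against 179, 155, 164 and 178 CPM in VFDM vehicle (log2 fold change 0.80 ± 0.15, edgeR adjusted p = 0.00214), and the co-receptor Tgfbr3 rose by 0.87 ± 0.18 but did not pass without VFDM vehicle library 2 or VFDM IFN library 2 (adjusted p at most 0.0705). Acadl, a fatty acid oxidation enzyme, rose by 0.91 ± 0.14. St8sia6, a sialyltransferase, rose by 6.33 ± 1.34 and lost its call without any 1 vehicle library (adjusted p at most 0.0744).

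Of genes chosen after their values were seen, Cdk6, the G1 kinase that sets exit of HSCs from quiescence, had 697, 1253, 1020 and 1099 CPM in VFDM IFN, against 455, 384, 377 and 381 CPM in VFDM vehicle. The log2 fold change was 1.35 ± 0.23 (edgeR adjusted p = 4.09e-04), with VFDM IFN library 1 lowest and VFDM vehicle library 1 highest in their groups. Runx3, a RUNX transcription factor, had 43.8, 103, 129 and 108 CPM in VFDM IFN, against 30.4, 20.3, 22.7 and 19.5 CPM in VFDM vehicle (log2 fold change 2.05 ± 0.25). Pdcd4, an inhibitor of translation, had 620, 929, 855 and 794 CPM in VFDM IFN, against 351, 320, 312 and 356 CPM in VFDM vehicle (1.26 ± 0.19). None of the 3 overlapped between the groups. Cell cycle lists gave no call: of 25 S-phase and 25 G2 and mitosis genes, edgeR and DESeq2 called 0, limma voom called 1 higher in each, and 1 and 2 were higher at an unadjusted p below 0.05, against 4.06% of all genes. Their medians were 0.17 and 0.31, or 0.07 and 0.13 without the library labelled VFDM IFN 3, and Cenpa, a centromere histone with the smallest p of the mitosis list, had 41.6, 48.9, 65.3 and 77.8 CPM in VFDM IFN, against 31.1, 39.5, 31 and 41 CPM in VFDM vehicle (edgeR adjusted p = 0.166).

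Few genes of the long-term HSC list passed. Of 40 tested, 3 rose, Ly6a and Tgfbr3 among them, 1 fell (Hlf) and 36 did not pass, with a median of -0.22. Hlf (chromosome 11, 90336536 to 90390895, mm10), a leucine zipper factor that maintains HSC quiescence, had 256, 211, 181 and 241 CPM in VFDM IFN, against 451, 506, 428 and 415 CPM in VFDM vehicle. Every IFN library was below every vehicle library, and the log2 fold change was -1.02 ± 0.21 (edgeR adjusted p = 0.00768). Without the library labelled VFDM IFN 3, which was the lowest, it was -0.93 (adjusted p = 0.0492). The IFN libraries lay wholly below the vehicle libraries for 13 of the 40 and wholly above for 5, against 6.97% and 5.87% of all genes. On the 8 libraries alone 3 rose and 10 fell, against 3.2% and 2.45% of all genes. Hoxa9, one of the 13, had 36.0, 33.8, 33.0 and 38.9 CPM in VFDM IFN, against 57.4, 58.7, 56.2 and 53.1 CPM in VFDM vehicle; its log2 fold change of -0.67 ± 0.21 did not pass (edgeR adjusted p = 0.169). Of 15 genes of the Hox clusters, 0 passed by edgeR or DESeq2, 2 were lower at an unadjusted p below 0.05 (2.07% of all genes), limma voom called 5 lower (4.4% of all genes), and 1 was positive (median -0.56).

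The other falls had no common list. Mpp7, a membrane scaffold protein, had 50.5, 43.2, 41.0 and 37.2 CPM in VFDM IFN, against 71.4, 64.7, 71.9 and 72.6 CPM in VFDM vehicle, without overlap (log2 fold change -0.71 ± 0.14, edgeR adjusted p = 0.00463). Of the 11 falls, 3 kept their calls when any 1 of the 8 libraries was left out, Mpp7 and Hlf among them, and the other 8 did not. Pkhd1l1 had 3.54, 0.958, 4.32 and 2.17 CPM in VFDM IFN, against 14.3, 24, 25.8 and 16.5 CPM in VFDM vehicle (log2 fold change -2.87 ± 0.63, edgeR adjusted p = 0.0117), and lost its call without VFDM IFN library 2 or 4 (at most 0.0739). Prkag2, a regulatory subunit of the AMP-activated kinase, fell by 0.88 and lost its call without VFDM vehicle library 2, VFDM IFN library 2 or the library labelled VFDM IFN 3 (at most 0.0950). Zfp608 fell by 0.88 and lost it without those 3 or VFDM IFN library 4 (at most 0.0981), and Ttc28 fell by 0.78 and lost it without VFDM vehicle library 1, 2 or 3 or VFDM IFN library 2 or 4 (at most 0.132). Phldb2 (-2.45), Rassf2 (-0.83) and Nfic (-0.62) passed without VFDM IFN library 1 but lost their calls without any 1 of the other 7 libraries, and Sgsh (-1.41), a lysosomal sulfatase, lost it without any 1 of the 8. Their highest adjusted p-values were 0.195, 0.249, 0.0922 and 0.176, in that order.

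**Figure D4:**
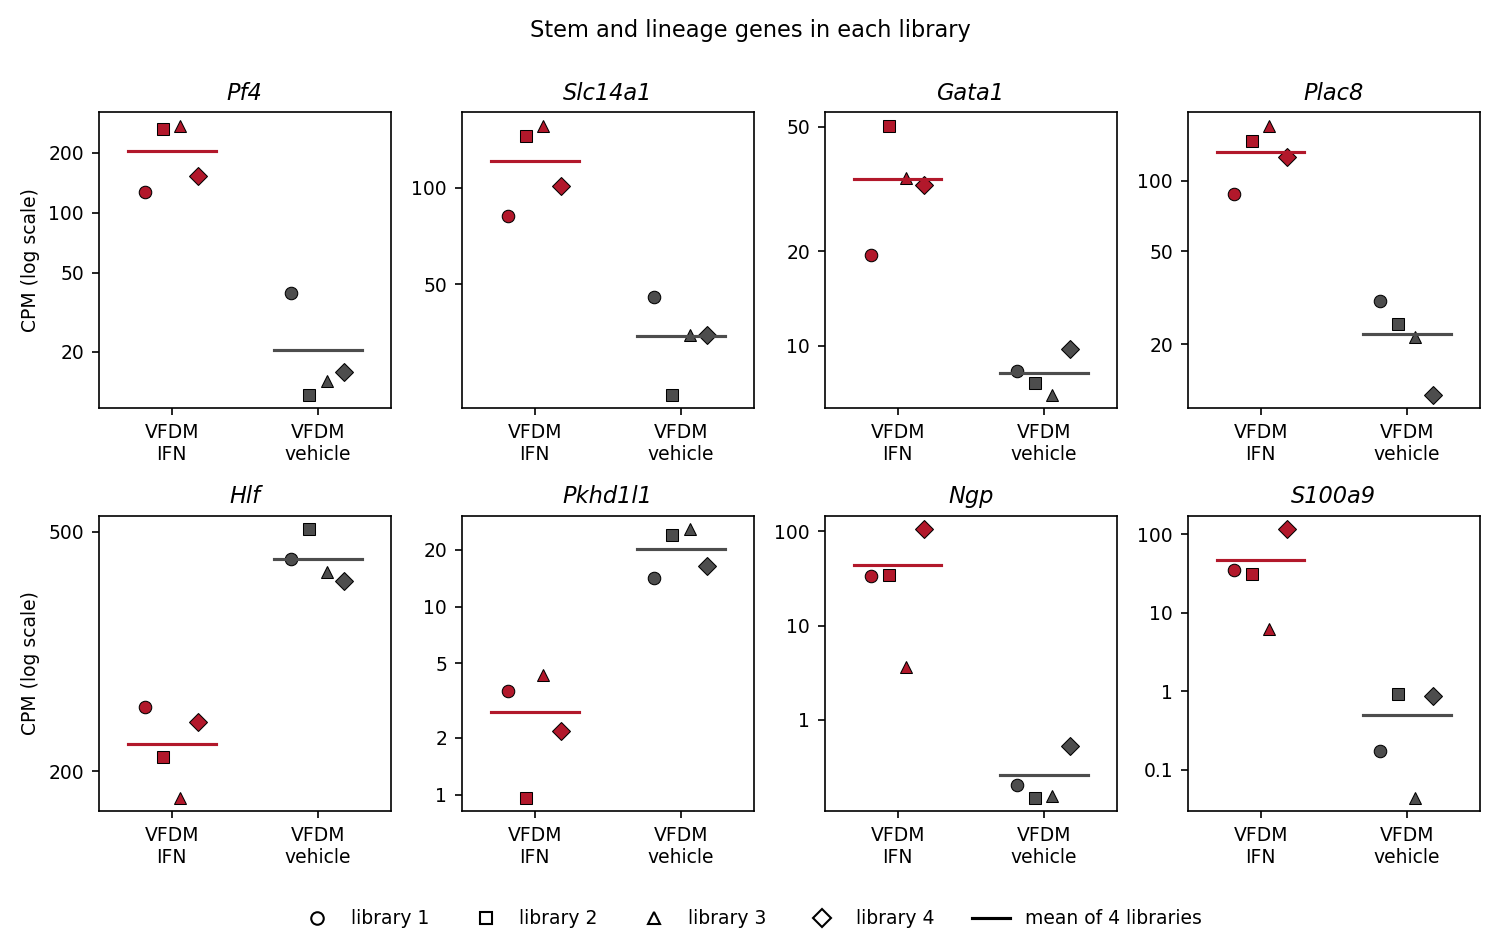
Levels (CPM, log scale) of stem and lineage genes in the 4 VFDM IFN and 4 VFDM vehicle libraries; points are libraries, with a marker shape per library number, and lines are means. Hlf and Pkhd1l1 are lower in all 4 IFN libraries, and Ngp and S100a9 vary most within the IFN group, with Ngp at 3.65 to 106 CPM.

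Calls for 2 further genes appeared when the library labelled VFDM IFN 3 was left out. Hmga2, a chromatin protein of self-renewing cells, had 1.12, 1.15, 6.64 and 1.30 CPM in VFDM IFN, against 9.67, 18.7, 9.36 and 14.0 CPM in VFDM vehicle. That library lay nearer to the vehicle libraries than its partners did, and the log2 fold change was -2.33 ± 0.74 with it (edgeR adjusted p = 0.207) and -3.44 without it (0.0331). Ccdc91 had 39.7, 28.7, 52.8 and 32.7 CPM in VFDM IFN, against 71.3, 74.6, 62.8 and 68.8 CPM in VFDM vehicle, with a log2 fold change of -0.85 ± 0.22 with it (adjusted p = 0.0595) and -1.04 without it (0.0221).

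Neutrophil granule genes, near 0 CPM in the vehicle libraries, rose. Of 19 neutrophil genes tested, 9 rose and 0 fell, with a median of 6.57. Ngp, a neutrophil granule protein, had 33.4, 34.3, 3.65 and 106 CPM in VFDM IFN, against 0.202, 0.148, 0.154 and 0.526 CPM in VFDM vehicle. S100a9, a calcium-binding protein of neutrophils, had 34.7, 31, 6.32 and 117 CPM in VFDM IFN, against 0.176, 0.917, 0.0439 and 0.863 CPM in VFDM vehicle. The IFN libraries were all higher, but spread over more than 10-fold, and the log2 fold changes were 7.37 ± 1.64 and 6.57 ± 1.47 (edgeR adjusted p = 0.0208 and 0.0219). Lcn2, Camp and Mmp8 also rose (edgeR adjusted p = 0.0233, 0.0249 and 0.0112). Calls for Ngp, S100a9, Lcn2 and Camp were lost without any 1 vehicle library or without VFDM IFN library 4 (adjusted p at most 0.114, 0.107, 0.119 and 0.141), and that for Mmp8 without VFDM vehicle library 1, 2 or 3 or VFDM IFN library 4 (at most 0.0673). The list count was 0 without VFDM vehicle library 1, 2 or 3 or VFDM IFN library 4 and 1 without VFDM vehicle library 4.

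Over the whole neutrophil list the summed level was 318, 226, 151 and 745 CPM in VFDM IFN, against 190, 139, 163 and 133 CPM in VFDM vehicle, and overlapped. Of its 20 genes, 0 were at 0 counts in each IFN library, against 8, 9, 5 and 5 in vehicle libraries 1 to 4. The monocyte and macrophage list summed to 174, 219, 135 and 300 CPM in VFDM IFN, against 97.1, 84.2, 93.4 and 96.3 CPM in VFDM vehicle, without overlap; 0 of 18 members passed by edgeR, 12 were higher and 1 lower at an unadjusted p below 0.05 (4.06% and 2.07% of all genes), DESeq2 called 3 higher (1.17%), and limma voom called 8 higher and 1 lower (4.4% each way). B cell genes summed to 6.03 to 11.1 CPM in VFDM IFN and 5.06 to 6.94 CPM in VFDM vehicle, and T and NK cell genes to 12.7 to 30.0 CPM in VFDM IFN and 8.31 to 12.1 CPM in VFDM vehicle. Mast cell and basophil genes summed to 364 to 462 CPM in VFDM IFN and 332 to 416 CPM in VFDM vehicle. The part of such cells in the changes above was not tested.

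The response was then set beside that of Dnmt3a-intact VF cells, a question the design poses with 2 genotypes under the same drug. Of the 4 VF vehicle libraries, 3 stood apart in their RNA. Genes of ribosomal RNA and small non-coding RNA took 5.5 to 8.43% of the counts in the 8 VFDM libraries and 7.1 to 10.5% in VF IFN, against 22.3, 24.9, 8.49 and 37.5% in VF vehicle libraries 1 to 4. Genes of the mitochondrial chromosome took 9.09 to 9.48% in VF IFN, against 1.82, 9.54, 11.8 and 0.859% in VF vehicle. Values below are given with all 4 and, as an alternative chosen after the data were seen, with VF vehicle library 3 as the 1 vehicle library of VF, taken to vary like the other groups. The part of RNA quality in the VF values was not tested. The overlaps and differences below include the library labelled VFDM IFN 3, except where stated. Without those 3 libraries the VFDM comparison had 214 calls, 198 of them shared with the 214 above. VF IFN against VF vehicle changed 538 genes (2.43%), 281 higher (1.27%) and 257 lower (1.16%), or 54 without the 3 libraries, 53 higher and 1 lower. Leaving out VF vehicle library 3 instead gave 1040 genes. Of the 203 genes that rose in VFDM, 141 also rose in VF (69.5% of the VFDM rises and 50.2% of the VF rises), 2 genes fell in both (Phldb2 and Prkag2) and 0 had opposite calls. Without the 3 libraries, 53 of the 203 rose in VF. All 203 had a positive and all 11 a negative log2 fold change in VF, or 201 of the 203 without the 3 libraries. Across 180 called genes of at least moderate level, Pearson's r between the log2 fold changes of the genotypes was 0.877, given as a description across genes chosen for their change in VFDM. The test of the difference between the responses called 0 of 22172 genes (0%; edgeR; smallest adjusted p = 0.225; 1149 at an unadjusted p below 0.05, or 5.18%, and 62 without the 3 libraries, where 0 passed), and 0 without the library labelled VFDM IFN 3 (978 at an unadjusted p below 0.05). DESeq2 called 27 genes, all with the larger change in VFDM, and limma voom called 5 (Per1, Arrdc4 and Ccdc117 higher, Chn1os3 and 4932443L11Rik lower in VFDM). Leaving out VF vehicle library 3, which keeps the 3 that stood apart, gave 70. The calls by DESeq2 included small nucleolar and ribosomal RNA genes and 2 immunoglobulin genes, beside Plac8 and Per1. Among the 70 were small RNA and ribosomal protein genes, beside Plac8, Per1 and other protein-coding genes such as Hdgf and Dctn1. Small RNA genes were counted in the share of ribosomal and small RNA given above, and ribosomal protein genes were not. The part of RNA quality in these calls was not tested.

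**Figure D5:**
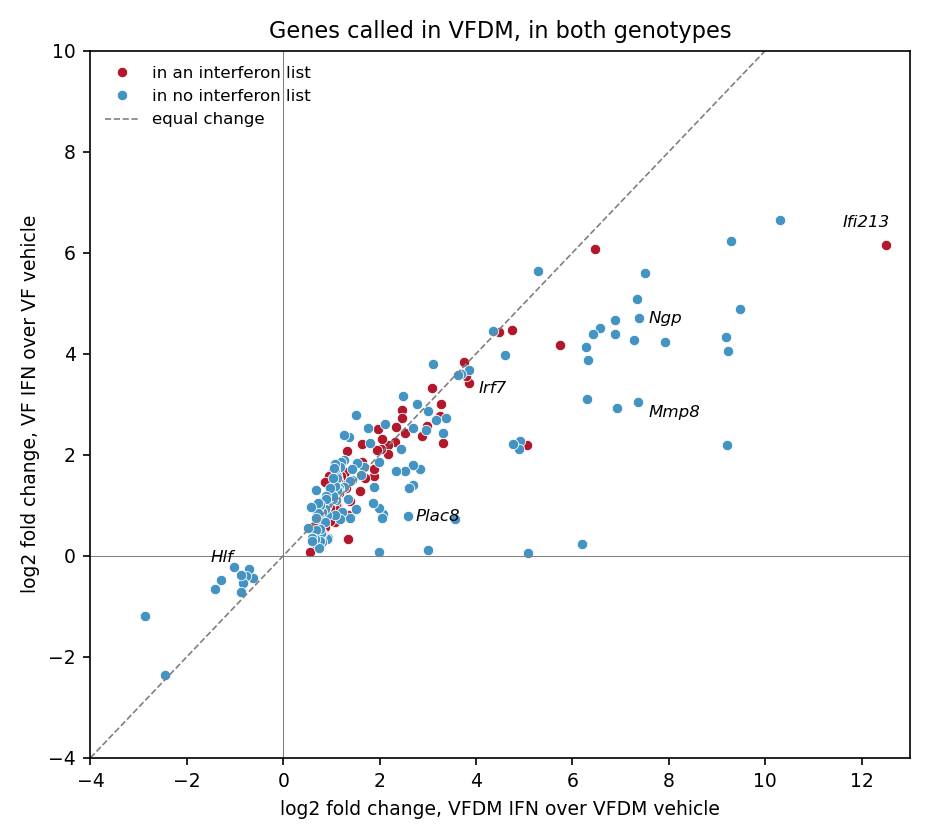
Log2 fold change of IFN over vehicle in VFDM cells (horizontal) against VF cells (vertical) for the 214 genes called in VFDM; colours mark genes in an interferon list and in none, and the dashed line marks equal change. The genes were chosen for their change in VFDM; Irf7 (3.85 in VFDM, 3.43 in VF) lies near the line, and Plac8 (2.59 in VFDM, 0.79 in VF) and Ngp (7.37 in VFDM, 4.71 in VF) lie below it.

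Interferon genes rose in both genotypes. The 177 interferon-list genes had a median log2 fold change of 0.87 in VFDM and 0.97 in VF, and 81 rose in VFDM and 88 in VF, or 39 in VF without the 3 libraries (median 0.93). Irf7 rose by 3.85 in VFDM and by 3.43 in VF, a difference of 0.42 with an approximate 95% interval of -0.39 to 1.22 from its SE. For Oas2 the difference was 0.27 (-0.31 to 0.86), for Ly6a 0.13 (-0.59 to 0.85) and for Rnf213 0.01 (-0.32 to 0.35). Isg15 rose by 3.32 in VFDM and 2.23 in VF (difference 1.09, 0.09 to 2.08, and -0.30, -1.48 to 0.88, without the 3 libraries), and Ddx60 by 1.63 in VFDM and 2.21 in VF (difference -0.58, -1.01 to -0.15, and -0.48, -1.03 to 0.06, without them). H2-Q7 rose by 0.86 in VFDM and had 0.33 in VF (difference 0.53, 0.17 to 0.89, and 0.13, -0.24 to 0.50, without them). In VF it did not pass by edgeR or DESeq2, but limma voom called it higher (log2 fold change 0.50, adjusted p = 3.96e-04). None of these differences passed adjustment over all genes, and a p that misses the threshold does not show equal responses.

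For lineage and stem cell genes, which were chosen mainly for their change in VFDM, the intervals of the difference below are not adjusted for the number of genes, and 0 of these differences passed by edgeR. Plac8 had 170, 140, 129 and 143 CPM in VF IFN, against 95.3, 79.1, 51.3 and 110 CPM in VF vehicle, so that VFDM vehicle, at 12.2 to 30.8 CPM, was the group that stood apart. Its log2 fold change was 2.59 in VFDM and 0.79 in VF, a difference of 1.79 (0.99 to 2.59), or 1.09 (0.10 to 2.09) without the 3 VF vehicle libraries that stood apart; it passed by DESeq2 (adjusted p = 0.0265) and by edgeR without VF vehicle library 3 (adjusted p = 0.0208). Runx3 had 141 to 194 CPM in VF IFN and 90.4 to 103 CPM in VF vehicle, and a difference of 1.29 (0.62 to 1.96), or 1.32 (0.42 to 2.23) without them. Gata1 rose by 2.06 in VFDM and had 0.82 in VF without passing (difference 1.24, 0.33 to 2.14, and 0.92, -0.26 to 2.11, without them). Hlf fell by 1.02 in VFDM and had -0.23 in VF, with 189 to 284 CPM in VF IFN and 261 to 309 CPM in VF vehicle; the difference was -0.79 (-1.38 to -0.20), or -0.83 (-1.67 to 0.02) without them, and VFDM vehicle, at 415 to 506 CPM, was the highest of the 4 groups. Pf4 rose in both genotypes, by 3.32 in VFDM and by 2.42 in VF, with a difference of 0.90 (-0.54 to 2.33). Without the 3 libraries Pf4 did not pass in VF, with a log2 fold change of 3.39 (edgeR adjusted p = 0.661), and the difference was -0.07 (-1.95 to 1.81). Of the neutrophil list 9 genes rose in VFDM and 0 in VF by edgeR. In VF, DESeq2 called 6 of 20 higher (492 of 17299 over all genes) and limma voom called 0. The list medians were 6.57 in VFDM and 3.27 in VF, or 2.85 in VF without the 3 libraries. For Ngp the difference was 2.67 (-1.29 to 6.63), or 2.33 (-3.31 to 7.96) without them.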

How the data were processed

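RNA of sorted bone marrow stem cells was extracted with a PicoPure kit and made into libraries with a stranded Takara SMART-Seq kit, per the labels' protocols. The authors deposited 1 table of read counts per gene for 31 libraries, whole numbers with no normalization. Per the submitters' processing notes, FastQC 0.11.5, STAR 2.7.10a, featureCounts, R 4.3.0 and the build mm10 were used; which annotation, strand option and rule for multi-mapped reads went into the counting is not given in the sources used here, and reads of overlapping or antisense genes cannot be told apart. The table holds 55492 gene identifiers, of which 5 are transgene entries and 55227 matched a symbol in GENCODE vM21.

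Counts were tested in R 4.3.3 with the quasi-likelihood test of edgeR 4.0.16 (TMM scaling, filterByExpr, robust fit, all 31 libraries, 1 mean per group), two-sided, with Benjamini-Hochberg adjustment over the 22172 genes kept. CPM are counts scaled to TMM-adjusted library sizes. Fold changes of genes at 0 in a group use a prior count of 0.125 and are no bounds; floors of 3 counts and approximate 95% intervals cover counting error or the fitted spread only. The method was checked on simulated data. Totals per library set the precision, and the lowest of the 8 was 22557079 counts. Same-numbered IFN and vehicle libraries did not deviate together, so the numbers were not used as pairs.

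The compared libraries, the gene lists and the tests were chosen with earlier results of these data known. Named genes are up to 15 rises and 15 falls of largest fold change at a mean log2 CPM of at least 2 without overlap of the groups, up to 5 members per list by smallest p, fixed label-check genes, and genes called only without the library labelled VFDM IFN 3; Itga2b, Plek, Cdk6, Pdcd4, Runx3 and Rnf213 were added after their values were seen. A few genes that these rules name are not reported here. Of 732 list entries, 6 were not found. Alternatives were RLE scaling, no filter, protein-coding genes only, the compared libraries alone, a replicate block, DESeq2 1.42.0, limma 3.58.1 voom with quality weights, leaving out each library in turn and, added after the data were seen, leaving out 3 VF vehicle libraries over the same genes. Promoters came from a RefSeq table for GRCm38.p6. Azacytidine and combination libraries entered the fit for its estimate of spread and are otherwise not reported here.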

Additional observations from a re-analysis of the deposited data

Results flagged for a closer look

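In a group of 4 libraries, a library was singled out where its gap to the nearest other library took an unusually large share of the group's whole range (Dixon's ratio at 95%). Over 102 of the genes named in the text, each with a VFDM IFN and a VFDM vehicle group, this happened in 25 of 204 groups (12.3%). Some other named genes, such as Ifi211, were not put to this rule. Chance gives about 1 in 20 for groups not chosen for it, but the named genes include Dnmt3a, Ifi204, Ifi206 and Ifi213, read to check the labels, and Hmga2, named because its call changed without the library labelled VFDM IFN 3, so the share is a description and carries no test.

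Among the 102 genes, the library labelled VFDM IFN 3 stood apart for 6: Dnmt3a at 162 CPM (ratio 0.85), Ifi204 at 12.5 CPM (0.84), Ifi206 at 35.9 CPM (0.937), Ifi213 at 75.3 CPM (0.959), Sgsh at 12.4 CPM (0.923) and Hmga2 at 6.64 CPM (0.968). For Dnmt3a, Ifi204, Ifi206 and Ifi213 this restates values read to check the labels, and for Hmga2 the value it was named for. VFDM IFN library 1 stood apart for 6 genes, high for Mx1 (0.864), Ifi44 (0.855), Irgm1 (0.871), Slfn5 (0.854) and Parp9 (0.83), and low for Tgfb1 at 226 CPM (0.861). VFDM IFN library 4 was high for Mmp8 at 13.3 CPM (0.834).

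Among vehicle libraries, VFDM vehicle library 1 was high for Oasl2 at 89.5 CPM (0.958), Ifi203 at 247 CPM (0.829), Pf4 at 39.5 CPM (0.868) and Cdk6 at 455 CPM (0.906). VFDM vehicle library 2 was high for Ifi206 at 0.296 CPM (0.92) and Cd34 at 242 CPM (0.865) and low for Mpp7 at 64.7 CPM (0.846). VFDM vehicle library 3 was high for Ifit1 at 16.4 CPM (0.834). VFDM vehicle library 4 was low for Dnmt3a at 109 CPM (0.912) and Irf9 at 58.0 CPM (0.859) and high for Ngp at 0.526 CPM (0.858) and Mmp8 at 0.0842 CPM, the 1 vehicle library with any Mmp8 count (ratio 1).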

How the results depend on the processing

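The count of 214 changed genes was 210 with RLE scaling, 189 with no filter, 210 among protein-coding genes and 176 (163 higher, 13 lower) with the replicate block, which left the test of the difference at 0. It was 1092 on the compared libraries alone (208 shared; 618 higher, 474 lower), 330 with DESeq2 (213 shared) and 1950 with limma voom (210 shared; 975 in each direction). Leaving out 1 library gave 120 to 227 genes. The difference between genotypes, 0 genes by edgeR, was 27 with DESeq2, 5 with limma voom and 0 to 70 when 1 library was left out, 70 without VF vehicle library 3. Without the 3 VF vehicle libraries rich in ribosomal and small RNA, an alternative chosen after the data were seen, it was 0, and the VFDM count was 214. The VF count of 538 was then 54; it was 1005 with DESeq2, 1258 with limma voom and 273 to 1040 when 1 VF library was left out. List members called were 108, or 98 without the library labelled VFDM IFN 3. Of the 87 changed genes named in the text, 60 kept their calls in all 8 fits without 1 library and 27 lost it in at least 1; none changed direction where an alternative gave a value (211 of the 214 on the compared libraries alone, 191 among protein-coding genes, 214 in the others). Uncalled values near 0 changed sign: Slamf1 (0.03) was -0.0089 with the replicate block, -0.19 with limma voom and -0.14 to 0.25 without 1 library, Dnmt3a (0.04) was -0.15 to 0.11 and CreERT2 (-0.17) was -0.28 to 0.022 without 1 library, with -0.15 and 0.022 without the library labelled VFDM IFN 3. The causes were not tested. Same-numbered libraries had correlations of deviations of 0.0434, -0.0346, 0.00809 and -0.0817, within the -0.178 to 0.174 of unlike-numbered ones. These values gave no sign of pairs but cannot exclude that same-numbered libraries share an origin. Genes near 0 CPM in vehicle, such as the neutrophil genes, rest on few counts there.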

Other observations

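Several gene groups of stem cell metabolism and growth gave few or no calls with IFN in Dnmt3a-deleted cells. Of 45 ribosomal protein genes, 0 passed by edgeR, DESeq2 or limma voom and 0 had an unadjusted p below 0.05, with a median log2 fold change of 0.02 in VFDM; in VF cells 13 fell, with a median of -0.36, and 0 passed without VF vehicle libraries 1, 2 and 4 (median -0.10), the 3 with 22.3, 24.9 and 37.5% of counts in ribosomal and small RNA genes. Of 15 genes encoded by mitochondrial DNA, 0 passed by edgeR or DESeq2, 0 had an unadjusted p below 0.05 and limma voom called 1 lower, with a median of -0.27 in VFDM and 0.61 in VF. VF vehicle libraries 1 and 4 had 1.82 and 0.859% of counts in mitochondrial genes, and the VF median was -0.39 without the 3 libraries. Cish, a feedback inhibitor and target of STAT5, had 48.3, 21.6, 27.3 and 15.1 CPM in VFDM IFN, against 57.1, 70.9, 46.1 and 42.2 CPM in VFDM vehicle. Its groups overlapped at 1 IFN library and the change did not pass (log2 fold change -0.94, edgeR adjusted p = 0.167), but it passed without VFDM IFN library 1 (-1.33, adjusted p = 0.011); in VF the log2 fold change was -1.44 and passed, and the difference between genotypes was 0.49 with an approximate 95% interval of -0.30 to 1.29. Cd34, a marker of activated and multipotent progenitors, had 75.4, 69.6, 145 and 40.8 CPM in VFDM IFN, against 145, 242, 141 and 129 CPM in VFDM vehicle; its log2 fold change was -0.99 (edgeR adjusted p = 0.443) with all libraries and -1.41 (0.0874) without the library labelled VFDM IFN 3.

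Of 14 genes of the Ifi200 cluster, the library labelled VFDM IFN 3 was the lowest of the VFDM IFN libraries for 11, the highest for Ifi206 and Ifi213, and between the others for Ifi203. The 4 genes given next were chosen after their values were seen. Ifi211 had 30.8, 31, 4.53 and 27.2 CPM in VFDM IFN libraries 1 to 4, 11.4 to 16.6 CPM in VFDM vehicle and 2.84 to 5.74 CPM in VF IFN. Ifi205 had 11.7, 12.9, 1.70 and 15.2 CPM in VFDM IFN, 4.66 to 6.15 CPM in VFDM vehicle and 1.83 to 3.86 CPM in VF IFN. Ifi208 had 11.2, 8.81, 0.150 and 5.76 CPM in VFDM IFN, 0.308 to 0.806 CPM in VFDM vehicle and 0.142 to 0.413 CPM in VF IFN. Ifi202b had 3.26, 3.76, 0.215 and 1.34 CPM in VFDM IFN, 0 to 0.527 CPM in VFDM vehicle and 0 to 0.0368 CPM in VF IFN.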
